A study of Mus musculus with 2 samples.

Results

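The RAB, ARF and ARL genes of the mouse were taken from the table by name, as every symbol that starts with Rab, Arf or Arl followed by a digit. This rule found 105 of 24319 genes. Of these, 85 encode small GTPases of the 3 families, and 20 only carry such a name, as effectors, regulators or binding proteins of a RAB or ARL or as noncoding RNAs beside one. The label of trafficking GTPases therefore holds for 85 of the 105, and the 20 partner genes are described apart. RNA came from EdU+ nuclei sorted from the dentate gyrus of mice aged 8 weeks, which had received 150 mg/kg of EdU, a thymidine analogue taken up in S phase, 16 h earlier. The 2 groups were Kmt2d +/mut mice, whose mutant allele the series text writes as Kmt2d+/Bgeo, and wild-type mice. Each group was 1 library of 500 nuclei pooled from 3 mice, so the spread between mice is not known and no value below has a replicate check. KMT2D methylates lysine 4 of histone H3, and people with 1 mutated copy have Kabuki syndrome type 1.

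RABs and ARFs are molecular switches that mark the membranes of the cell. Bound to GTP they sit on a membrane and recruit effectors such as tethers, coats and motors. Bound to GDP they are released, and exchange factors (GEFs) and GTPase-activating proteins (GAPs) turn them on and off. Each RAB has its own address, from the endoplasmic reticulum (ER) and Golgi to endosomes, lysosomes and secretory vesicles, while ARFs recruit vesicle coats at the Golgi and plasma membrane and ARLs (ARF-like proteins) serve lysosomes, cilia and microtubules. In neurons and their precursors these switches carry receptors, adhesion proteins and synaptic vesicle precursors to their sites.

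Both libraries were shallow. FPKM, the fragments of a gene corrected for its transcript length and for depth, was above 0 for 5443 genes in the Kmt2d +/mut library and 5787 in the wild-type library. Low FPKM values lay at steps, and 1 fragment was worth about 4.61 FPKM in the Kmt2d +/mut library and 4.57 FPKM in wild-type for each 1 kb of transcript length less 180 bp. This gives 217113 and 218884 fragments by estimate, provided that each total was used to scale its own library, which is not stated. Numbers of fragments below are estimates from these steps. PCR copies were not marked, so fragments are not separate molecules, and intervals cover counting error only. Kmt2d itself stood at 23.5 FPKM in Kmt2d +/mut and 34.7 FPKM in wild-type nuclei and was not tested in the authors' deposited table. Of 5 markers of dividing cells, 1 was above 0 in Kmt2d +/mut and 3 in wild-type, with Pcna and Mcm2 at 0 in both libraries. Their sum was 23.1 FPKM in each library. Mki67 stood at 23.1 FPKM in Kmt2d +/mut and 0.913 FPKM in wild-type. Cdk1 and Top2a were listed at 0 in Kmt2d +/mut and stood at 20.4 and 1.80 FPKM in wild-type. The granule cell marker Prox1 was also at 0 in both. Stem cell and astrocyte markers summed to 969.6 FPKM in Kmt2d +/mut and 593 FPKM in wild-type (4 of 6 above 0 in each, Aqp4 at 0 in both, Gfap at 0 in Kmt2d +/mut only). Neuron markers summed to 815 FPKM in Kmt2d +/mut and 860 FPKM in wild-type, and oligodendrocyte precursor markers to 606 FPKM in Kmt2d +/mut and 628 FPKM in wild-type. Both sums hide mixed directions. Snap25 stood at 539 FPKM in Kmt2d +/mut and 685 FPKM in wild-type, while Map2, Rbfox3, Syt1 and Tubb3 were higher in Kmt2d +/mut. Of the precursor markers, Olig2 and Sox10 were higher in Kmt2d +/mut and Cspg4, Olig1 and Pdgfra lower. Granule neuron markers summed to 286 FPKM in Kmt2d +/mut and 431 FPKM in wild-type (3 of 5 in each), with Calb1 at a listed 0 in Kmt2d +/mut and 178 FPKM in wild-type, while C1ql2 and Dcx were higher in Kmt2d +/mut. Oligodendrocyte markers summed to 1103 FPKM in Kmt2d +/mut and 487 FPKM in wild-type (4 of 5 above 0 in Kmt2d +/mut and 3 of 5 in wild-type, Mog at 0 in both). In the same way, microglia markers summed to 211 FPKM in Kmt2d +/mut and 59.8 FPKM in wild-type (2 of 5 in each, Cx3cr1 and Aif1 at 0 in both, P2ry12 at 0 in Kmt2d +/mut only). Endothelial markers were at 0 throughout. The part of these marker differences in the values below was not tested, and in pooled nuclei fewer cells of a type cannot be told apart from less RNA per cell.

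Of the 105 genes, 48 were above 0 in at least 1 library, 36 in Kmt2d +/mut and 32 in wild-type. The other 57 were listed at 0 in both, a share of 54.3%, against 66.9% of all genes. All 48 reached 1 FPKM in at least 1 library, the minimum used for counts. Of these, 12 were listed at 0 in Kmt2d +/mut only, which is 25.0% against 31.9% of the 7903 genes over the minimum. A further 16 were listed at 0 in wild-type only, 33.3% against 27.8% of those genes. Both shares were near those of all genes. A listed 0 may stand for a failed estimate as well as for no reads, so such genes get no fold.

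**Figure D1:**
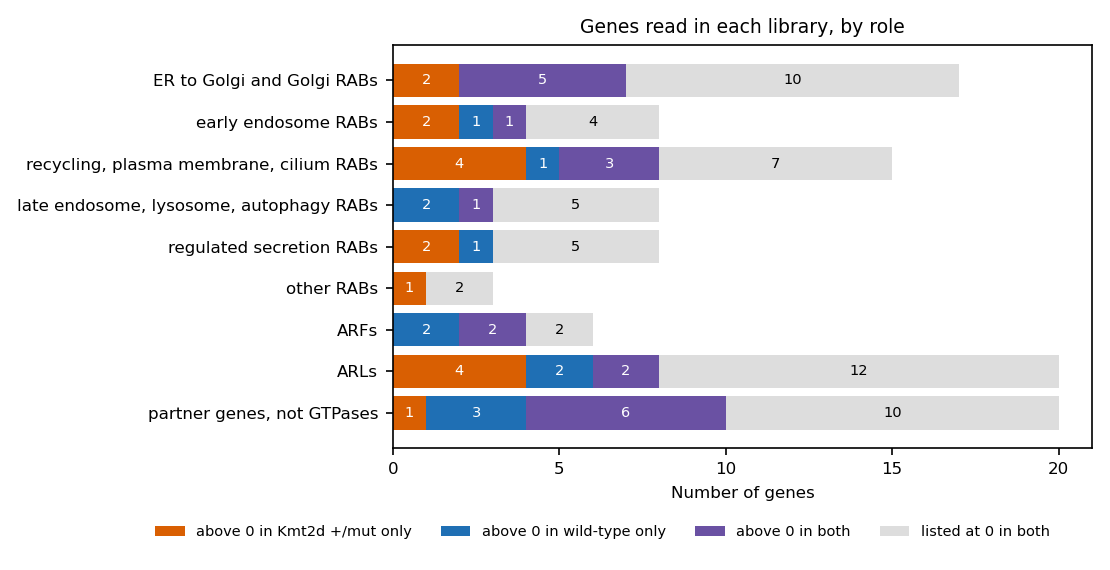
Number of RAB, ARF and ARL genes in each role that were above 0 in the Kmt2d +/mut library only, in the wild-type library only, in both, or in neither. Late endosome RABs and ARFs have no gene read in Kmt2d +/mut only, and ER to Golgi RABs have none read in wild-type only. These groups hold few read genes. Of all genes over the minimum, 27.8% were read in Kmt2d +/mut only and 31.9% in wild-type only.

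The remaining 20 genes were above 0 in both libraries. By log2((Kmt2d +/mut FPKM + 1)/(wild-type FPKM + 1)), 5 stood at least 2-fold higher in the Kmt2d +/mut library (25.0%, against 31.5% of 3182 genes above 0 in both libraries), 9 at least 2-fold lower (45.0%, against 30.6%) and 6 within 2-fold (30%, against 37.9%). Their median log2 ratio was -0.94, against 0.02 over all genes above 0 in both libraries. Over all 48 genes the median was -0.53, against -0.23 over the 7903 genes, but genes with a listed 0 enter these medians through the pseudocount alone. For the GTPases by themselves the median was -0.71 over the 14 above 0 in both libraries. With the 24 listed at 0 in 1 library it was 1.30, a sign set by the 15 with a listed 0 in wild-type and the 9 in Kmt2d +/mut. The authors' deposited table tested 24 of the genes, all with 59.3 FPKM or more in 1 library, and calls 4 higher (16.7%, against 12.8% of the 3249 genes tested) and 5 lower (20.8%, against 14.3%). Together these are 9 calls (37.5%, against 27%), and all 9 belong to genes listed at 0 in 1 library. So do all 878 calls among the 3249 genes tested, so this is not particular to the members. Among tested genes listed at 0 in 1 library, the authors' deposited table calls 9 of 12 members and 61.7% of all 1423 such genes. High values met a listed 0 at shares near the background or above it. Of 12 members at 50 FPKM or more in Kmt2d +/mut, 6 were listed at 0 in wild-type (50%, against 33.9% of all such genes). Of 16 members at 50 FPKM or more in wild-type, 6 were listed at 0 in Kmt2d +/mut (37.5%, against 36.7%). The 12 tested genes above 0 in both had q-values of 0.432 or more in the authors' deposited table. Over all tested genes above 0 in both the smallest q-value was 0.178, and none of those genes is called.

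**Figure D2:**
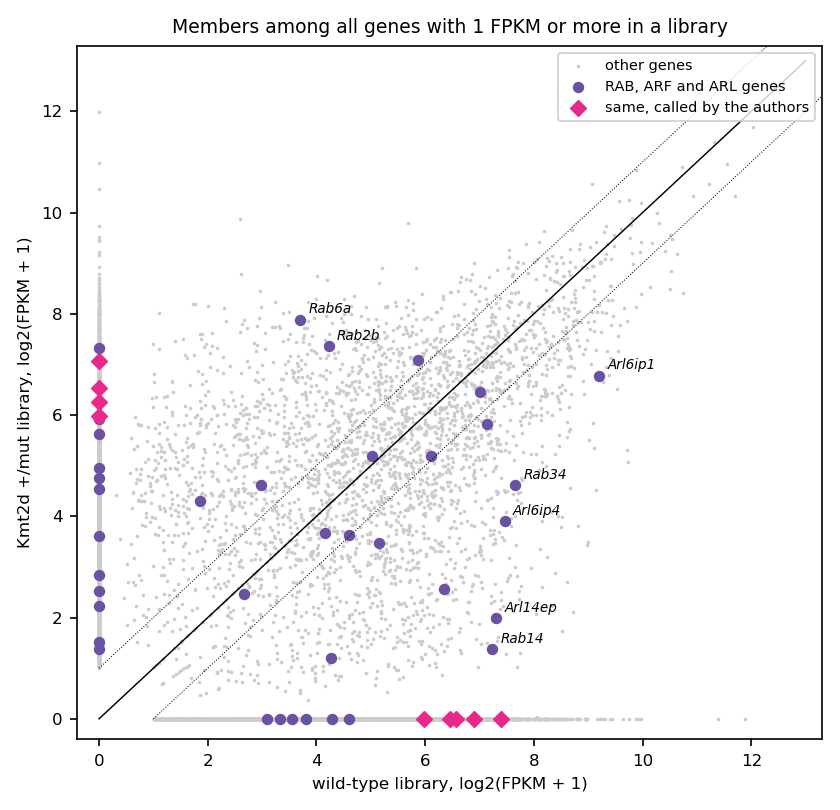
Each point is a gene with 1 FPKM or more in at least 1 library, with log2(FPKM + 1) in the wild-type library on the x axis and in the Kmt2d +/mut library on the y axis. The solid line marks equal values and the dotted lines 2-fold, RAB, ARF and ARL genes are in colour, and the 9 called genes all lie on an axis, where 1 library is listed at 0.

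The calls ran in both directions among RABs of endosomes, so the promoters of 4 of these genes are shown before their values. They come from RefSeq (GRCm38.p6) and run from 250 bp before to 50 bp after the start site nearest the 5′ end of the locus. Capitals mark the E-box CACGTG, to which lysosomal regulators such as TFEB can bind, and the GC box GGGCGG on either strand, bound by SP factors. The E-box is its own reverse complement, and the 2 motifs cannot overlap by more than their end letters. The first 2 belong to genes listed at 0 in Kmt2d +/mut, Rab5a (chr17:53478984-53479283, plus strand) and Rab7 (chr6:88045221-88045520, minus strand). The others belong to genes listed at 0 in wild-type, Rab11a (chr9:64737707-64738006, minus strand) and Rab31 (chr17:65772703-65773002, minus strand).
Rab5a: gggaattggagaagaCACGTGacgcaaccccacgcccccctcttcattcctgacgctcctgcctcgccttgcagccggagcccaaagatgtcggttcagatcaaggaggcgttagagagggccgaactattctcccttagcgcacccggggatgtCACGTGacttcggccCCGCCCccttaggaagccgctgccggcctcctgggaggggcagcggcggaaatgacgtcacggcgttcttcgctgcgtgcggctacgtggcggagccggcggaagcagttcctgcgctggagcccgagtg
Rab7: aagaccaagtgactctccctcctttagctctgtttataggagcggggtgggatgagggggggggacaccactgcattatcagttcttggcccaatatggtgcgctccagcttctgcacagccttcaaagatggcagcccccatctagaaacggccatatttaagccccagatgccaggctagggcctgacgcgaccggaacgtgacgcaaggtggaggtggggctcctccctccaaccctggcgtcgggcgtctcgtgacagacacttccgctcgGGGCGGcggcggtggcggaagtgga
Rab11a: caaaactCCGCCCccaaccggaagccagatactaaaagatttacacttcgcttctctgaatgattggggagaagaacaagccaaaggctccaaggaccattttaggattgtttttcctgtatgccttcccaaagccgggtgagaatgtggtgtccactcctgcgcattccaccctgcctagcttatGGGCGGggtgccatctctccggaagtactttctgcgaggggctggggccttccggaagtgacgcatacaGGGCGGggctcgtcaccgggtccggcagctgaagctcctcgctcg
Rab31: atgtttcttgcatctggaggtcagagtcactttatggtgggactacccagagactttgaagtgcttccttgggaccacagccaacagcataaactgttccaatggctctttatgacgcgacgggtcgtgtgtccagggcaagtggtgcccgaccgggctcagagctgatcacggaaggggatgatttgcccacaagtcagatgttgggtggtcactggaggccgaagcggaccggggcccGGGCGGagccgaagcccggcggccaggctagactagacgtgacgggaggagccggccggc

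All 4 promoters held the GC box, with 1 copy in Rab5a, Rab7 and Rab31 and 3 in Rab11a, and Rab5a also held 2 copies of the E-box. Their GC content was 65.3% for Rab5a, 61.0% for Rab7, 56.3% for Rab11a and 60.3% for Rab31. Among all called members with a promoter in the table, the 3 called higher and the 5 called lower all held the GC box. The GC box was present in 72.9% of 85 member promoters and 47.2% of 17126 promoters of all genes, and the E-box in 14.1% and 8.22%. Among genes above 0 in either library the shares for the GC box were 81.8% of 44 members and 65.9% of 6169 genes, and for the E-box 13.6% and 10.1%. The median GC content was 63.3% in members and 56.7% in all genes. It was closer among genes above 0 in either library, at 63.7% in members and 61.7% in all such genes. A match is only a run of letters, and the GC box stood in called promoters of both directions.

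Of the 17 RABs that act at the ER and Golgi, 7 were read, all 7 in Kmt2d +/mut and 5 in wild-type. Those listed at 0 in wild-type only made up 28.6%, against 27.8% of all genes over the minimum. None was listed at 0 in Kmt2d +/mut only, against 31.9%. Rab6a, which directs transport within and from the Golgi, had the highest ratio of all members above 0 in both libraries. It stood at 235 FPKM in Kmt2d +/mut and 11.98 FPKM in wild-type, from an estimated 155.0 and 7.96 fragments, a ratio of 19.6 on the FPKM scale (exact binomial 95% interval of the fragment ratio 9.63 to 46.0). The authors' deposited table does not call it (q = 0.477). Its annotated gene overlaps Mrpl48, and the locus in the table runs 58293 bp beyond the gene, so reads of the 2 genes may be shared.

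Rab2a and Rab2b, close relatives that act between the ER and the Golgi, had opposite directions. Rab2a stood at 4.93 FPKM in Kmt2d +/mut and 80.3 FPKM in wild-type, about 2.09 and 34.3 fragments. Rab2b stood at 163 FPKM in Kmt2d +/mut and 17.7 FPKM in wild-type, about 96.4 and 10.54 fragments. The intervals of the fragment ratio, 0.0076 to 0.232 for Rab2a and 4.84 to 19.3 for Rab2b, do not overlap. The authors' deposited table calls neither, with q-values of 0.585 and 0.611. The gene of Rab2b overlaps Tox4, and 975 bp of its transcript are identical to the annotated transcript Gm43766. Summed, the pair had 168 FPKM in Kmt2d +/mut and 98.0 FPKM in wild-type.

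Rab34, which acts at the Golgi and in the formation of primary cilia, stood at 23.4 FPKM in Kmt2d +/mut, 11.7% of the 200.2 FPKM in wild-type (fragment ratio interval 0.0470 to 0.246). Rab18, which works at ER contacts with lipid droplets, stood at 1.31 FPKM in Kmt2d +/mut and 18.2 FPKM in wild-type, about 1.81 and 25.2 fragments on its longest transcript. On its shortest transcript these values would be worth 0.157 and 2.19 fragments. Rab34 and Rab18 were both lower in Kmt2d +/mut. The authors' deposited table tested Rab34 (q = 0.611) and did not test Rab18. Rab1b and Rab1 (now Rab1a), which govern the step from ER to Golgi, stood at 11.2 and 1.86 FPKM in Kmt2d +/mut but were listed at 0 in the wild-type library. These values amount to about 4.22 fragments for Rab1b and 1 fragment for Rab1. Listed at 0 in both libraries were Rab6b, Rab19, Rab30, Rab33a, Rab33b, Rab36, Rab39, Rab39b, Rab42 and Rab43.

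**Figure D3:**
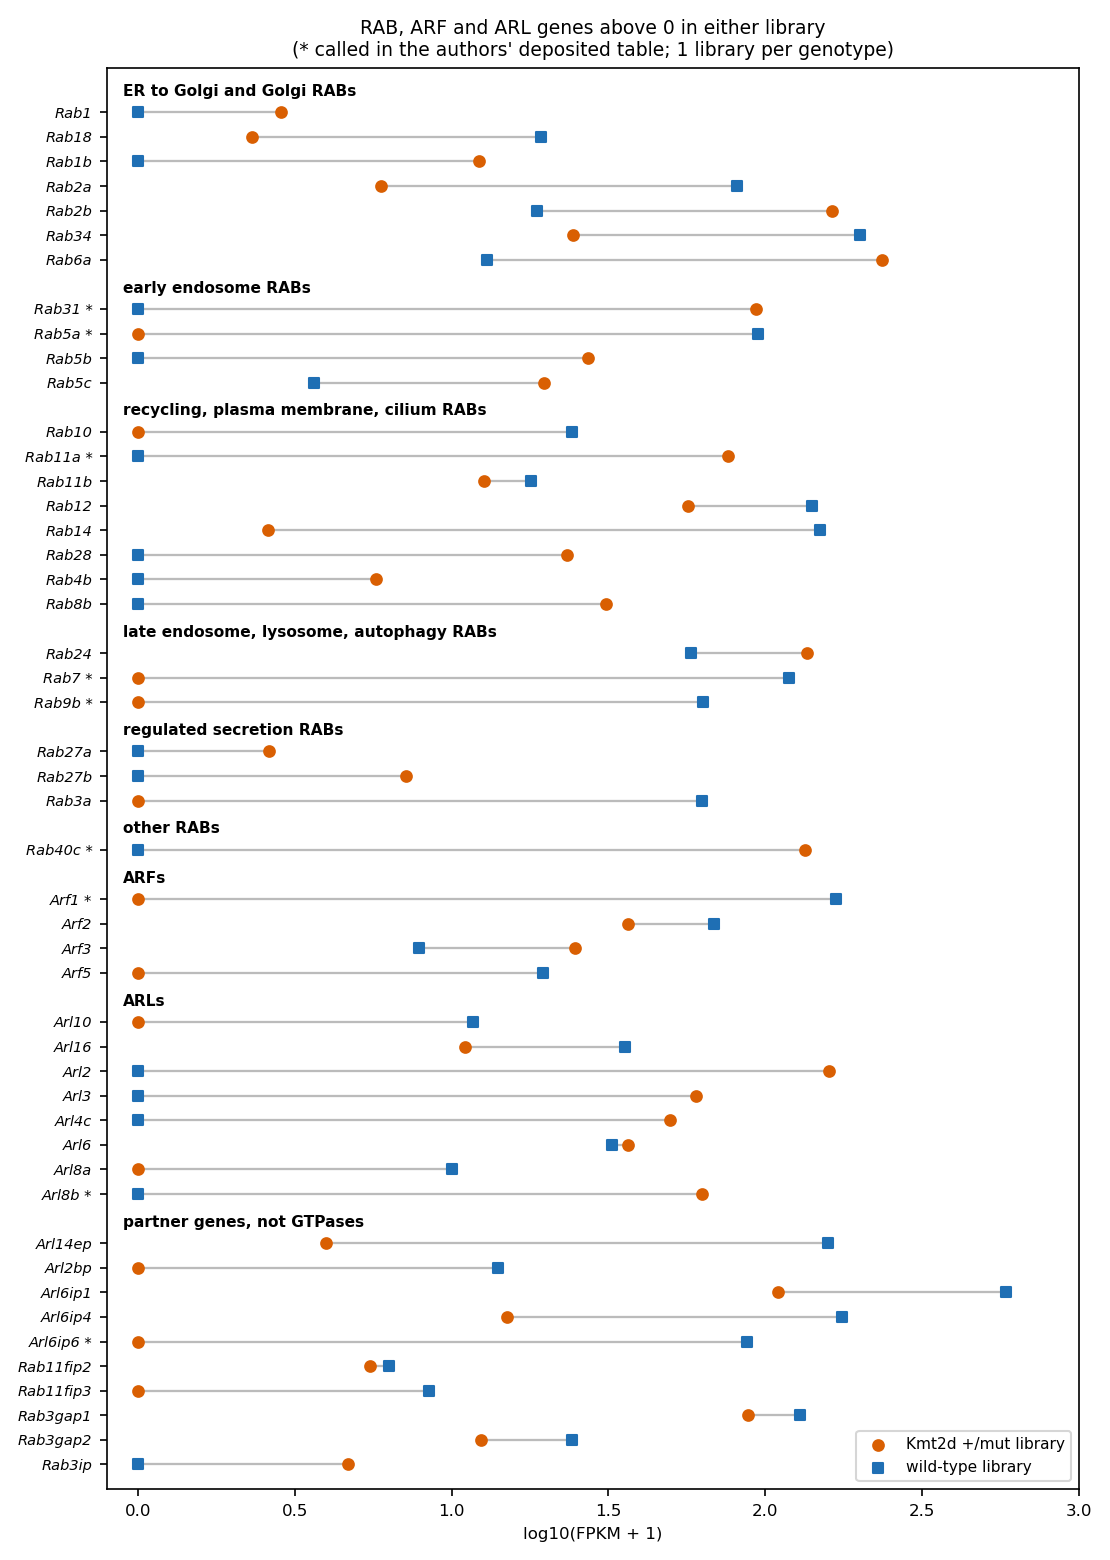
FPKM of the 48 RAB, ARF and ARL genes above 0 in either library, as log10(FPKM + 1), by role, with the Kmt2d +/mut library as circles and the wild-type library as squares. Symbols at 0 mark a listed 0, and asterisks mark the 9 genes called in the authors' deposited table.

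Of 8 early endosome RABs, 4 were read, 3 in Kmt2d +/mut and 2 in wild-type. Listed zeros in Kmt2d +/mut only made up 25% of the 4, against 31.9% of all genes over the minimum. In wild-type only they made up 50%, against 27.8%. Rab5a, a main switch of early endosome fusion, was listed at 0 in Kmt2d +/mut and stood at 93.9 FPKM in wild-type, about 45.0 fragments. The authors' deposited table calls it lower (p = 0.0032, q = 0.0290). Its locus in the table (mm10, chromosome 17, 53479234 to 53539451, plus strand) runs beyond the gene, which overlaps Pp2d1. Rab5b, a paralogue with the same role, stood at 26.1 FPKM in Kmt2d +/mut but was listed at 0 in wild-type. Rab5c, the third paralogue, stood at 18.6 FPKM in Kmt2d +/mut and 2.63 FPKM in wild-type, about 7.02 fragments and 1 fragment, with a fragment ratio interval from 0.904 to 320 that includes equality. Summed, the 3 Rab5 genes had 44.8 FPKM in Kmt2d +/mut and 96.6 FPKM in wild-type. For Rab5b, 648 bp of the transcript match an annotated processed pseudogene. The FPKM of Rab5b rests on about 17.0 fragments, and the authors' deposited table did not test it.

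Rab31, a relative of Rab5 and Rab22a in transport between the Golgi and endosomes, had the opposite direction to Rab5a. It stood at 92.2 FPKM in Kmt2d +/mut (about 65.9 fragments) but was listed at 0 in wild-type (chromosome 17, 65651726 to 65772752, minus strand). The authors' deposited table calls it higher (p = 0.0055, q = 0.0303). Rab17, Rab20, Rab21 and Rab22a were listed at 0 in both libraries.

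In the late endosome and lysosome group, 2 of the 3 genes read were listed at 0 in Kmt2d +/mut. That is 66.7%, against 31.9% of all genes over the minimum, but it rests on 3 genes. Rab7, which drives early endosomes to mature and fuse with lysosomes, was listed at 0 in Kmt2d +/mut and stood at 118 FPKM in wild-type, about 51.02 fragments (chromosome 6, 87999106 to 88045270, minus strand). Rab9b, a relative of the RAB that returns mannose 6-phosphate receptors from late endosomes to the Golgi, was listed at 0 in Kmt2d +/mut and stood at 62.1 FPKM in wild-type, about 51.7 fragments (chromosome X, 136858151 to 136868540, minus strand). The authors' deposited table calls both lower, with p-values of 0.0008 and 0.0028 and the same q-value of 0.0290. A processed pseudogene, Rab7-ps1, matches 622 bp of the Rab7 transcript at 98.4% identity. Rab24, which has been tied to autophagy, ran the other way at 135 FPKM in Kmt2d +/mut and 57.0 FPKM in wild-type (fragment ratio interval 1.17 to 5.002, q = 0.623 in the authors' deposited table). Its gene overlaps Prelid1. Rab7b, Rab9, Rab29, Rab32 and Rab38 were listed at 0 in both libraries.

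RABs of recycling endosomes, the plasma membrane and the cilium were read for 8 of 15 genes, 7 in Kmt2d +/mut and 4 in wild-type. Listed zeros in Kmt2d +/mut only made up 12.5% of the 8, against 31.9% of all genes over the minimum. In wild-type only they made up 50%, against 27.8%. Rab11a, the main RAB of recycling endosomes, stood at 75.1 FPKM in Kmt2d +/mut (about 35.2 fragments) but was listed at 0 in wild-type (chromosome 9, 64715300 to 64737756, minus strand). The authors' deposited table calls it higher (p = 0.00155, q = 0.0290). Its paralogue Rab11b was read in both, at 11.7 FPKM in Kmt2d +/mut and 16.9 FPKM in wild-type, about 15.0 and 22.0 fragments. For Rab11b the interval of the ratio, 0.331 to 1.38, includes equality, and 654 bp of its transcript match the pseudogene Rab11b-ps2.

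Rab14, which acts between the Golgi and endosomes, had the smallest ratio of the members above 0 in both libraries. It stood at 1.59 FPKM in Kmt2d +/mut, the worth of 1 fragment, and at 149 FPKM in wild-type, about 94.5 fragments, a ratio of 0.0107 on the FPKM scale (fragment ratio interval 0.000265 to 0.0604). The q-value in the authors' deposited table is 0.574, and the gene is not called. Rab12, which takes the transferrin receptor from recycling endosomes to lysosomes, stood at 55.7 FPKM in Kmt2d +/mut and 139.85 FPKM in wild-type (interval 0.230 to 0.657, q = 0.612 in the authors' deposited table). Both were lower in Kmt2d +/mut.

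Of the other genes of this group, Rab8b, which serves transport to the plasma membrane and cilium, stood at 30.1 FPKM in Kmt2d +/mut (about 29.8 fragments) but was listed at 0 in wild-type. For Rab8b, 279 bp of the transcript are identical to the processed pseudogene Gm20689. Rab28 and Rab4b stood at 22.3 and 4.73 FPKM in Kmt2d +/mut, about 7.06 and 1.04 fragments, and were listed at 0 in wild-type. Rab10, which moves cargo such as glucose transporters to the cell surface, was listed at 0 in Kmt2d +/mut and stood at 23.2 FPKM in wild-type, about 16.9 fragments. None of these 4 was tested in the authors' deposited table. Rab4a, Rab8a, Rab13, Rab15, Rab23, Rab25 and Rab35 were listed at 0 in both libraries.

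Among the 8 RABs of regulated secretion, 5 were listed at 0 in both libraries (Rab3b, Rab3c, Rab3d, Rab26 and Rab37). This share of 62.5% was near the 66.9% of all genes. Rab3a, the main RAB of synaptic vesicles, was listed at 0 in Kmt2d +/mut and stood at 61.7 FPKM in wild-type, about 17.1 fragments. The authors' deposited table does not call it (p = 0.251, q = 0.582), and its gene overlaps Mpv17l2. Rab27b and Rab27a, which tether secretory granules and melanosomes, stood at 6.15 and 1.61 FPKM in Kmt2d +/mut, about 8.96 and 1.04 fragments on the longest transcripts, and were listed at 0 in wild-type. On the shortest transcripts their values would be worth 3.33 and 0.976 fragments. For Rab27a, 155 bp of the transcript match the processed pseudogene Gm27186. Among the RABs outside these groups, Rab40c, which recruits a ubiquitin ligase through its SOCS box, stood at 133 FPKM in Kmt2d +/mut (about 66.2 fragments) but was listed at 0 in wild-type. Rab40c is called higher in the authors' deposited table (p = 0.0057, q = 0.0308; chromosome 17, 25882114 to 25919714, minus strand). Rab40b and Rab44 were listed at 0 in both.

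**Figure D4:**
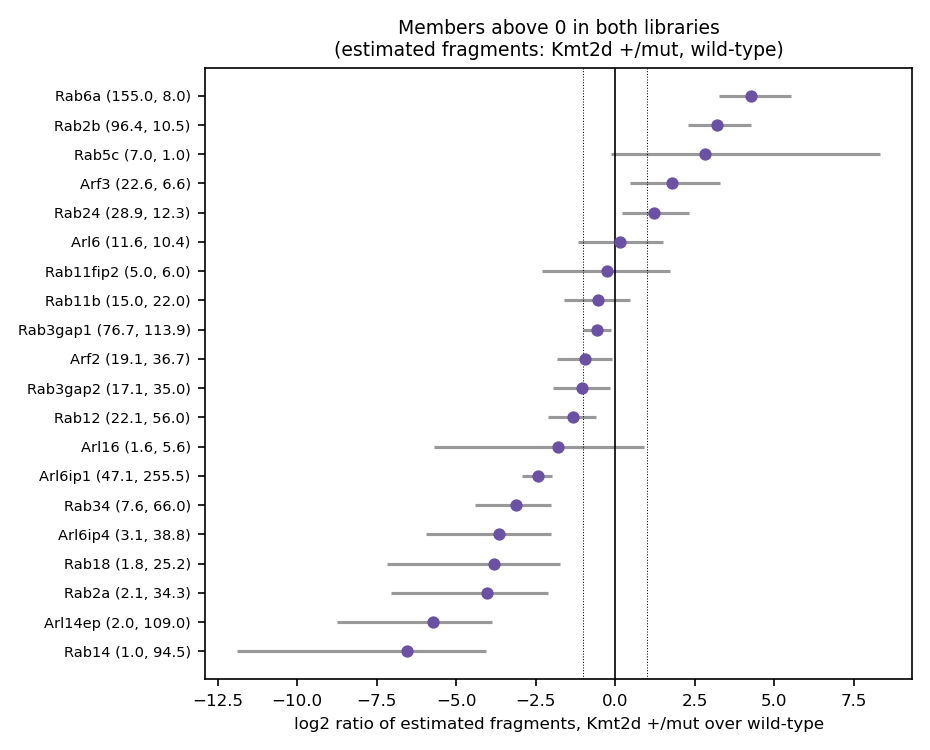
Log2 ratio of estimated fragments, Kmt2d +/mut over wild-type, for the 20 members above 0 in both libraries, with exact binomial 95% intervals that cover counting error only. The numbers beside each gene are its estimated fragments, Kmt2d +/mut before wild-type, and dotted lines mark 2-fold. Rab6a has the highest ratio and Rab14 the lowest.

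ARFs were read for 4 of 6 genes, all 4 in wild-type and 2 in Kmt2d +/mut. Those listed at 0 in Kmt2d +/mut only made up 50% of the 4, against 31.9% of all genes over the minimum. Arf1, which recruits COPI and clathrin adaptor coats to the Golgi, was listed at 0 in Kmt2d +/mut and stood at 167 FPKM in wild-type, about 66.1 fragments (chromosome 11, 59211412 to 59228267, minus strand). The authors' deposited table calls it lower (p = 0.004, q = 0.0290). Arf2, a close relative found in mice, stood at 35.4 FPKM in Kmt2d +/mut and 67.7 FPKM in wild-type, with a fragment ratio interval from 0.282 to 0.926 and no call in the authors' deposited table (q = 0.665). Arf3, another ARF of the Golgi, ran the other way at 23.7 FPKM in Kmt2d +/mut and 6.88 FPKM in wild-type (interval 1.39 to 9.74). Arf5, whose gene overlaps Gcc1, was listed at 0 in Kmt2d +/mut and stood at 18.6 FPKM in wild-type, about 3.81 fragments. Arf4 and Arf6 were listed at 0 in both. The 6 ARFs together summed to 59.1 FPKM in Kmt2d +/mut and 260.0 FPKM in wild-type, and Arf1 made up most of the wild-type sum.

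Of 20 ARLs, 8 were read, 6 in Kmt2d +/mut and 4 in wild-type. Listed zeros in Kmt2d +/mut only made up 25% of the 8, against 31.9% of all genes over the minimum. In wild-type only they made up 50%, against 27.8%. Arl8b, which couples lysosomes to kinesin for transport along microtubules, stood at 62.1 FPKM in Kmt2d +/mut (about 57.4 fragments) but was listed at 0 in wild-type (chromosome 6, 108783059 to 108823723, plus strand). The authors' deposited table calls it higher (p = 0.0032, q = 0.0290). Its paralogue Arl8a, also of lysosomes, was listed at 0 in Kmt2d +/mut and stood at 9.03 FPKM in wild-type, the worth of 3.03 fragments. Arl2, which takes part in tubulin folding, stood at 158 FPKM in Kmt2d +/mut and a listed 0 in wild-type, and is not called in the authors' deposited table (p = 0.062, q = 0.270). Its gene overlaps Batf2, so reads of the 2 genes may be shared. Arl3, which releases lipid-modified cargo into cilia, stood at 59.3 FPKM in Kmt2d +/mut against a listed 0, about 8.53 fragments, also without a call in the authors' deposited table (q = 0.369).

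Arl4c stood at 48.6 FPKM in Kmt2d +/mut (about 40.3 fragments) but was listed at 0 in wild-type. It holds more estimated fragments than Arl3, but as the highest of the members below the level tested it has no test in the authors' deposited table. Arl6, which recruits the BBSome to cilia, had close values of 35.4 FPKM in Kmt2d +/mut and 31.4 FPKM in wild-type (interval 0.442 to 2.86). Its locus in the table runs 966140 bp beyond the gene. Arl16 stood at 10.1 FPKM in Kmt2d +/mut and 34.7 FPKM in wild-type, about 1.60 and 5.55 fragments, with an interval from 0.0192 to 1.86 that includes equality. Arl10 was listed at 0 in Kmt2d +/mut and stood at 10.7 FPKM in wild-type, about 2.03 fragments. Arl1, Arl4a, Arl4d, Arl5a, Arl5b, Arl5c, Arl9, Arl11, Arl13a, Arl13b, Arl14 and Arl15 were listed at 0 in both libraries.

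Sets of paralogues can be read together, since close copies can share a role and also reads. Of the sets with a letter for each copy, Rab2, Rab5, Rab11 and Arl8 had values above 0 in both libraries and more than 1 gene read. Their summed FPKM was 168 in Kmt2d +/mut and 98.0 in wild-type for Rab2, and 44.8 in Kmt2d +/mut and 96.6 in wild-type for Rab5. It was 86.8 in Kmt2d +/mut and 16.9 in wild-type for Rab11, and 62.1 in Kmt2d +/mut and 9.03 in wild-type for Arl8. In each of these 4 sets at least 1 copy was higher and another lower in Kmt2d +/mut by FPKM, though for Rab11b the interval includes equality. Taking only sets with values in both libraries favours such mixed directions. For Arl8, whose copies were each read in 1 library only, the choice fixed them. How often sets of other genes have mixed directions was not counted. Of the other lettered sets with more than 1 gene read, Rab1 and Rab27 had both copies above 0 in Kmt2d +/mut and listed at 0 in wild-type. The sums of these sets in Kmt2d +/mut were 13.1 FPKM for Rab1 and 7.75 FPKM for Rab27. In the Rab33, Rab39 and Arl5 sets no gene was read in either library.

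The 20 partner genes had lower values in Kmt2d +/mut in 9 of the 10 that were read. This count takes a difference of any size, with 3 listed zeros and 3 genes within 2-fold among the 9. Its share over all genes was not computed. For Rab11fip2, 1 of these 9, the fragment ratio interval of 0.204 to 3.28 includes equality. The partner genes summed to 232 FPKM in Kmt2d +/mut and 1183 FPKM in wild-type, of which Arl6ip1 alone gave 109 and 586 FPKM. The 85 GTPases summed to 1488 FPKM in Kmt2d +/mut and 1398 FPKM in wild-type. The 6 partners above 0 in both libraries had a median log2 ratio of -1.69, against -0.71 over the 14 such GTPases, so both medians were below 0. With listed zeros included the medians were -2.75 for 10 partners and 1.30 for 38 GTPases. Of the 10, 3 were listed at 0 in Kmt2d +/mut (30%, against 31.9% of all genes over the minimum) and 1 in wild-type (10%, against 27.8%). A further 3 were at least 2-fold lower in Kmt2d +/mut (30%, against 12.3%), 3 within 2-fold (30%, against 15.3%) and 0 at least 2-fold higher (against 12.7%). This difference between partners and GTPases was not tested.

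Arl6ip1, an ER-shaping membrane protein, was the most abundant member of all, at 109 FPKM in Kmt2d +/mut and 586 FPKM in wild-type, about 47.1 and 255 fragments. Its FPKM ratio of 0.186 has a fragment ratio interval from 0.132 to 0.252, and the q-value in the authors' deposited table is 0.432. Arl6ip4, a splicing-related nuclear protein, stood at 14.03 FPKM in Kmt2d +/mut and 175 FPKM in wild-type (interval 0.0161 to 0.247). Arl14ep, an effector partner of ARL14, stood at 2.99 FPKM in Kmt2d +/mut and 158 FPKM in wild-type, about 2.05 and 109.0 fragments on its longest transcript. On its shortest transcript the values would be worth 0.767 and 40.8 fragments. The authors' deposited table calls neither Arl6ip4 (q = 0.596) nor Arl14ep (q = 0.582). Arl6ip6 was listed at 0 in Kmt2d +/mut and stood at 86.4 FPKM in wild-type, about 44.8 fragments (chromosome 2, 53192084 to 53219221, plus strand). It is the only partner gene called in the authors' deposited table, as lower (p = 0.00185, q = 0.0290).

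The 2 subunits of the RAB3 GAP complex, which also acts as an exchange factor for RAB18, differed less. Rab3gap1, the catalytic subunit, stood at 86.9 FPKM in Kmt2d +/mut and 128 FPKM in wild-type, about 76.7 and 114 fragments (interval 0.497 to 0.907, q = 0.856 in the authors' deposited table). Rab3gap2, the other subunit, stood at 11.4 FPKM in Kmt2d +/mut and 23.3 FPKM in wild-type (interval 0.257 to 0.895), and its gene overlaps Iars2. Rab11fip2, an effector of RAB11 in recycling, stood at 4.49 FPKM in Kmt2d +/mut and 5.31 FPKM in wild-type, about 5.05 and 6.03 fragments. Rab11fip3 and Arl2bp were listed at 0 in Kmt2d +/mut and stood at 7.496 and 13.04 FPKM in wild-type. Rab3ip, an exchange factor for RAB8, stood at 3.68 FPKM in Kmt2d +/mut (the worth of 2 fragments) but was listed at 0 in wild-type. The protein-coding partners Arl6ip5, Arl14epl, Rab3il1, Rab11fip1, Rab11fip4 and Rab11fip5 and the transcripts Rab10os, Rab26os, Rab11fip4os1 and Rab11fip4os2 were listed at 0 in both libraries.

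Genes that act on or with these GTPases, given by 8 lists of 210 symbols of which 208 were in the table, had listed zeros about as often as all genes. Of 119 genes that reached the minimum, 39 had a listed 0 in Kmt2d +/mut only (32.8%, against 31.9% of all genes over the minimum) and 33 in wild-type only (27.7%, against 27.8%). The other 47 were above 0 in both libraries. Of the 119, 18 were higher in Kmt2d +/mut by 2-fold or more (15.1%, against 12.7% of all genes over the minimum). By as much, 12 were lower (10.1%, against 12.3%), so both shares were near those of all genes. The median log2 ratio was 0.61 over those 47, against 0.02 over all such genes. Of 40 genes tested, the authors' deposited table calls 7 higher (17.5%, against 12.8% of all genes tested) and 9 lower (22.5%, against 14.3%).

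RABs need a lipid tail to reach membranes, and 6 genes of this step reached the minimum. In Kmt2d +/mut, 2 of them were higher by 2-fold or more (33.3%, against 12.7% of all genes over the minimum). There, 1 was lower by as much (16.7%, against 12.3%) and 1 had a listed 0 (16.7%, against 31.9%). A further 2 had a listed 0 in wild-type only (33.3%, against 27.8%). Of the 5 tested in the authors' deposited table, 2 are called higher (40%, against 12.8% of all genes tested) and 1 lower (20%, against 14.3%). Rabggta and Rabggtb, the 2 subunits of the enzyme that attaches the geranylgeranyl tail, stood at 89.7 and 229.8 FPKM in Kmt2d +/mut but were listed at 0 in the wild-type library. The authors' deposited table calls both higher, with q-values of 0.0290 and 0.0157. Gdi2, which extracts GDP-bound RABs from membranes, was listed at 0 in Kmt2d +/mut and stood at 208 FPKM in wild-type, and is called lower in the authors' deposited table (q = 0.0290). Rabac1, a RAB-binding membrane protein of the Golgi, stood at 123 FPKM in Kmt2d +/mut and 323 FPKM in wild-type, without a call in the authors' deposited table.

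Of 23 RAB exchange factors over the minimum, 9 had a listed 0 in Kmt2d +/mut only (39.1%, against 31.9% of all genes) and 8 in wild-type only (34.8%, against 27.8%). A further 4 were higher in Kmt2d +/mut by 2-fold or more (17.4%, against 12.7%) and 0 lower by as much (against 12.3%). The authors' deposited table calls Rpgr, a ciliary protein, and Trappc6b, a TRAPP subunit, lower, at listed 0 values in Kmt2d +/mut and 74.8 and 191 FPKM in wild-type, and Dennd2a higher, at 59.4 FPKM in Kmt2d +/mut against a listed 0. Trappc1, a core subunit of the TRAPP exchange factor for RAB1, stood at 237 FPKM in Kmt2d +/mut against a listed 0, without a call in the authors' deposited table (q = 0.147). Of 18 RAB GAPs over the minimum, 8 were listed at 0 in Kmt2d +/mut only (44.4%, against 31.9% of all genes) and 3 in wild-type only (16.7%, against 27.8%). The authors' deposited table calls Tbc1d10a higher, at 96.3 FPKM in Kmt2d +/mut against a listed 0. Rabgap1 stood at 147 FPKM in Kmt2d +/mut and 13.25 FPKM in wild-type, and Tbc1d19 at 9.20 FPKM in Kmt2d +/mut and 274 FPKM in wild-type. Of 20 RAB effectors, 6 were listed at 0 in Kmt2d +/mut only (30%, against 31.9%) and 3 in wild-type only (15%, against 27.8%), while 3 were higher by 2-fold or more (15%, against 12.7%) and 5 lower by as much (25%, against 12.3%). The authors' deposited table calls Osbpl1a, an effector of RAB7, and Rufy1, an effector of endosomal RABs, lower at listed 0 values against 57.7 and 158 FPKM in wild-type. Appl2, an endosomal adaptor that binds RAB5, stood at 106.7 FPKM in Kmt2d +/mut and 32.9 FPKM in wild-type, and Rufy3 at 23.9 FPKM in Kmt2d +/mut and 106 FPKM in wild-type.

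On the ARF side, none of the 16 exchange factors was tested in the authors' deposited table. The most abundant, Fbxo8, stood at 49.5 FPKM in Kmt2d +/mut and 25.8 FPKM in wild-type, followed by Cyth2, an activator of ARF6, at 29.5 FPKM in Kmt2d +/mut (a listed 0 in wild-type), and Arfgef1, which activates ARF1 at the Golgi, at 26.1 FPKM in Kmt2d +/mut and 1.32 FPKM in wild-type. Among ARF GAPs, the authors' deposited table calls Arfgap2, a GAP of COPI coats, lower, at a listed 0 in Kmt2d +/mut and 202 FPKM in wild-type (q = 0.00308), the same direction as Arf1. The authors' deposited table also calls Agfg1 lower, at a listed 0 in Kmt2d +/mut and 86.1 FPKM in wild-type, and Agfg2 higher, at 54.2 FPKM in Kmt2d +/mut and a listed 0 in wild-type. Smap1 stood at 10.9 FPKM in Kmt2d +/mut and 132 FPKM in wild-type, and Elmod1 at 106.6 FPKM in Kmt2d +/mut and 80.8 FPKM in wild-type. Among ARF and ARL effectors, the authors' deposited table calls Golga1, a golgin recruited by ARL1, lower, at a listed 0 in Kmt2d +/mut and 54.2 FPKM in wild-type. Gga3, a clathrin adaptor recruited by ARFs, stood at 94.4 FPKM in Kmt2d +/mut and 40.3 FPKM in wild-type, Pip5k1c at 57.0 FPKM in Kmt2d +/mut and 28.1 FPKM in wild-type, and Ap3d1 at 64.6 FPKM in Kmt2d +/mut and 83.7 FPKM in wild-type.

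Of related small GTPases, the authors' deposited table calls Ift22 and Rabl6 higher, at 214 and 52.6 FPKM in Kmt2d +/mut against listed 0 values in wild-type. Sar1b, which builds COPII coats at the ER, stood at 475 FPKM in Kmt2d +/mut and 207 FPKM in wild-type, Arfrp1 at 126 FPKM in Kmt2d +/mut and 98.9 FPKM in wild-type, and Rheb, the activator of mTORC1 on lysosomes, at 69.4 FPKM in Kmt2d +/mut and 281 FPKM in wild-type. None of these 3 is called in the authors' deposited table. The median log2 ratio of related GTPases was -0.15 over the 4 above 0 in both libraries. Over all 9 that reached the minimum it was 1.198, with 4 of them listed at 0 in wild-type only (44.4%, against 27.8% of all genes).

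**Figure D5:**
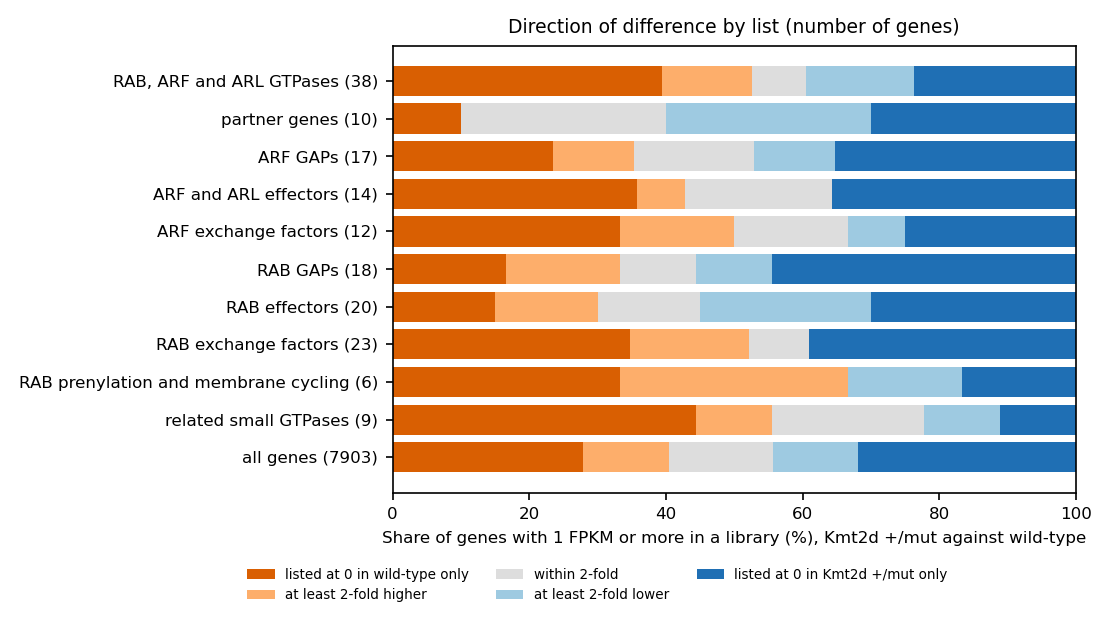
Share of genes with 1 FPKM or more in at least 1 library, by direction of Kmt2d +/mut against wild-type, for the GTPases, their partner genes and 8 lists of regulators, effectors and relatives, above all genes. The number of genes in each row stands in parentheses, and small rows move in large steps.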

How the data were processed

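RNA was measured in 2 pooled libraries, 1 per genotype. Per the labels' protocols, 500 nuclei per genotype were sorted for EdU and libraries followed a modified Smart-seq2 protocol with 22 cycles of cDNA amplification and 20 of enrichment. Per the submitters' processing notes, HISAT2, Cuffnorm and Cuffdiff were used on mm10, with no versions or settings stated there. FPKM, p-values and q-values are as the authors deposited them. The table holds 6 libraries, of which 4 were not used, and 27 of 24346 entries had a date for a name and were left out. Lengths, overlaps and strands came from GENCODE M21, in which 104 of 105 members matched by symbol and Rab1 by a RefSeq synonym at its locus. Coordinates are the loci of the table, with starts moved to count from 1. Near-identical copies were sought among GENCODE transcripts with BLAST+ 2.17.0 (97% identity, 150 bp). The fragment worth was fitted on genes with 1 transcript over 800 bp. There, 72.2% of 90 low values in Kmt2d +/mut and 72.2% of 115 in wild-type lay within 0.1 of a whole number, as did 8 of 14 values under 10 fragments in members with 1 transcript length. The fit was tested on simulated data. Fragments of a gene used its longest principal transcript linked to RefSeq.

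Ratios used a pseudocount of 1 and a minimum of 1 FPKM in at least 1 library, and this scale understates differences of low genes. No test between genotypes was made. Named were members called in the authors' deposited table, above 0 in both libraries with 50 FPKM or more in 1, among the 3 highest of a role group or read in a paralogue set, and from each other list those called and the 3 with the highest mean, of which a few are not reported here. Other members were named after their values were seen, to account for all 105. Members and lists were chosen with earlier results of these data known. Alternatives varied the pseudocount, minimum, centring and membership. Analyses used Python 3.11.15, pandas 2.3.3 and SciPy 1.17.1.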

Additional observations from a re-analysis of the deposited data

How the results depend on the processing

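Of 80 alternative ratios of the 20 members above 0 in both libraries, 77 stayed within their counting interval, 3 moved outside it and 0 changed sign. A pseudocount cannot change the sign of a ratio, and centring shifted ratios by only 0.0169. The ratio of estimated fragments lies within its own interval by construction. These 80 ratios therefore say little about stability. Pseudocounts of 0.1 and 10, no minimum, a minimum of 10 FPKM and centring left every count of members within 1.5 times. The median log2 ratio of -0.53 was less stable. It was -0.94 with a minimum of 10 FPKM, above 0 in both libraries or with 10 estimated fragments. It was -0.92 without copies and overlaps with named genes and -1.87 among tested members. With GTPases only it was 1.30, which rests on listed zeros (-0.71 over the 14 above 0 in both libraries), and 3 members in place of 6 were within 2-fold. Among members tested in the authors' deposited table, 3 were at least 2-fold higher, 2 within 2-fold, and 6 were listed at 0 in Kmt2d +/mut only and 6 in wild-type only. Chosen after seeing the data, a minimum of 10 estimated fragments in 1 library left 7 listed at 0 in Kmt2d +/mut only and 8 in wild-type only. Also chosen then, leaving out members with an overlapping named gene or near-identical copy left 2 at least 2-fold higher (7 of 9 called members remained). Overlaps with genes that have only a provisional name (such as Gm or a leading digit) or with antisense os transcripts were kept. Rab40c, which overlaps Gm16278 and Gm26694, is 1 of the 7. These alternatives use fewer members by construction. No paired analysis was possible because each genotype had 1 library, and no library could be left out. Values under 10 fragments, as in 16 of the 48 members read, limit what a ratio or a listed 0 can show. The 16 include Arl16, Rab5c and Rab11fip2, which were above 0 in both libraries. Of members with a listed 0, 7 of 12 in Kmt2d +/mut and 8 of 16 in wild-type had 10 fragments or more in the other library.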
